A study of Mus musculus with 2 samples.

Results

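The genes described here encode Polycomb repressive complex 2 (PRC2): the core subunits Ezh2, Ezh1, Eed, Suz12, Rbbp4 and Rbbp7, and the accessory subunits Mtf2, Phf19, Jarid2 and Aebp2. They were chosen by name, 10 of the 32285 genes listed, and all 10 had counts in both libraries. Single-cell RNA was measured in late promyelocytes from leukemic mouse bone marrow, sorted as Cd45.2+, C-Kit+, Gr1+, Cd34- and FcγR+. The cells of both groups carried the PLZF/RARA fusion. One group received 0.8 to 1 mg retinoic acid by intraperitoneal injection over 7 days, and the control group received the vehicle, corn oil with 10% DMSO, by the same route. Cohorts held 3 to 5 mice. The labels do not give the number of mice behind each library, their age, or how the fusion was introduced. Each group was 1 library. There is no replicate to check a difference against, and no test was made. Differences between mice, sorts or library preparations cannot be told apart from the treatment.

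PRC2 places methyl groups on lysine 27 of histone H3, a mark of silenced genes. EZH2 and EZH1 are alternative catalytic subunits: EZH2 prevails in dividing cells and has the stronger methyltransferase activity, whereas EZH1 is better known from resting and differentiated cells. EED reads the methyl mark and SUZ12 scaffolds the complex, and the enzyme needs both. RBBP4 and RBBP7 bind histones and also serve in other chromatin complexes. MTF2 and PHF19 are Polycomb-like proteins that define one form of the complex, and JARID2 and AEBP2 define another. The title of the series names EZH2 in the resistance of PLZF/RARA leukemia to retinoic acid, and the fusion's leukemia is known for its poor response to that drug.

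The RefSeq promoter windows of the members were read first, because several members moved together with the cell cycle in the values below. All 10 members had a window of 250 bases before an annotated start (build GRCm38.p6), 14 windows in all. Each was searched on both strands for the E2F words TTTCCCGC, TTTCGCGC, TTTGCCGC and TTTGGCGC, for CCAAT, and for the cell cycle element TTTGAA. E2F factors act on genes of DNA replication, and CCAAT boxes are bound by NF-Y. An E2F word was found in 2 of the 14 windows (14.3%), those of Suz12 and Phf19, where 1.86% of all 32851 windows held one. CCAAT was found in 7 of 14 windows (50%), where 33.9% of all windows held it, and TTTGAA in 4 of 14 (28.6%), where 15.99% did. Overlap with another word was not excluded. The following stretches are shown because these genes had the largest S over G1 ratios or carry an E2F word. Ezh1 is added as the member with the lowest S over G1 ratio in both libraries. They are written 5′ to 3′ on the gene's strand, and capitals mark E2F and CCAAT words on either strand. Parts of a window that lie in an annotated exon are left out.
Ezh2, chr6:47595059-47595183, minus strand: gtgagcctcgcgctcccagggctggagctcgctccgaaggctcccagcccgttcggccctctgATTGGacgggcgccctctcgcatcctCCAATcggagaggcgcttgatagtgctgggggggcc
Suz12, chr11:79992856-79993105, plus strand: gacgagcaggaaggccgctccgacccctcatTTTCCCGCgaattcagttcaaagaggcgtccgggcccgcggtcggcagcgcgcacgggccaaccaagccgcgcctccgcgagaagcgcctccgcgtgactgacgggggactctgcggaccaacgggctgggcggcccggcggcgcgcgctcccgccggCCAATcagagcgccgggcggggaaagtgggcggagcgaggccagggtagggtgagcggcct
Phf19, chr2:34914027-34914226, minus strand: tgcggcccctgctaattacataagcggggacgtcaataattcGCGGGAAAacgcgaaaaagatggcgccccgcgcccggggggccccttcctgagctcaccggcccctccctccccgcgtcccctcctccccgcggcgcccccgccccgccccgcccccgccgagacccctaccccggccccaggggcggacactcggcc
Ezh1, chr11:101226464-101226713, minus strand: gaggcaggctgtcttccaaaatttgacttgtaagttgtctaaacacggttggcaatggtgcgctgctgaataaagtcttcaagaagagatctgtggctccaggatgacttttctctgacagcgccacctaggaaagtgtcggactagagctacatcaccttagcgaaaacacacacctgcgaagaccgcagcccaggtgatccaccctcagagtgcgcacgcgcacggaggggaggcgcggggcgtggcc
Counted back from the annotated start, where the base just before it is -1, the E2F word began at -219 in Suz12 and at -208 in Phf19. The Ezh2 window held 3 CCAAT words, 2 of which lie in the stretch shown, and no E2F word. The Ezh1 window held neither E2F nor CCAAT words. CCAAT was in a window of 7 of the 10 genes, among them Jarid2, which was also lower in S than in G1 cells. Jarid2, Mtf2 and Aebp2 had 2, 2 and 3 windows, with CCAAT in 1 window of each. More windows give a gene more room for a match, and no share by gene was taken over all genes. Eed, which was higher in S, had neither E2F nor CCAAT words but 2 TTTGAA words. TTTGAA was also in a window of Suz12, Mtf2 and Aebp2. A match is a description of these letters only, and binding was not measured.

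Filtering kept 5476 vehicle cells, summing to 99107718 UMIs, and 7140 retinoic acid cells, summing to 110088247 UMIs. A UMI, or unique molecular identifier, tags 1 captured RNA molecule, and CPM is the UMIs of a gene per 1000000 UMIs of the cells summed. Cells had a median of 16749.5 UMIs with vehicle and 14604 with retinoic acid, and 11 kept cell barcodes occurred in both libraries. Of 10 promyelocyte and neutrophil precursor markers, 10 reached 1 CPM with vehicle and 9 with retinoic acid. Their summed level was 12887 CPM with vehicle and 23340 CPM with retinoic acid, and single markers went both ways. Mpo, a defining enzyme of primary granules, was at 311 and 0.4996 CPM, whereas Elane, another of its enzymes, was at 62.8 and 7663 CPM and Prtn3 at 246 and 2819 CPM. Cd34 RNA was at 53.8 and 0.118 CPM, although the antigen was sorted against. The summed level of 6 mast cell and basophil markers was 693 CPM with vehicle and 65.2 CPM with retinoic acid, with Fcer1a and Tpsb2 at 0 in both and Prss34 at 0 in the latter. Of the 693 CPM, Cpa3 gave 569.9. The 4 eosinophil markers summed to 122 and 33.1 CPM, and the 5 macrophage markers to 73.97 and 5.44 CPM, nearly all of it Adgre1. The 4 stem and progenitor markers summed to 56.7 and 0.836 CPM, with Mecom at 0 in both. The 5 T cell markers summed to 0.212 and 0.154 CPM, with Cd3e, Cd4 and Cd8a at 0 in both libraries.

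Levels below carry 95% counting intervals in parentheses. In this 3′ chemistry each captured molecule counts once whatever its length, so CPM was not divided by gene length. In both libraries the members stood in the same order of CPM, from Rbbp4 down through Rbbp7, Suz12, Ezh2, Mtf2, Jarid2, Eed, Aebp2 and Ezh1 to Phf19. No neighbours in this order had overlapping counting intervals.

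**Figure D1:**
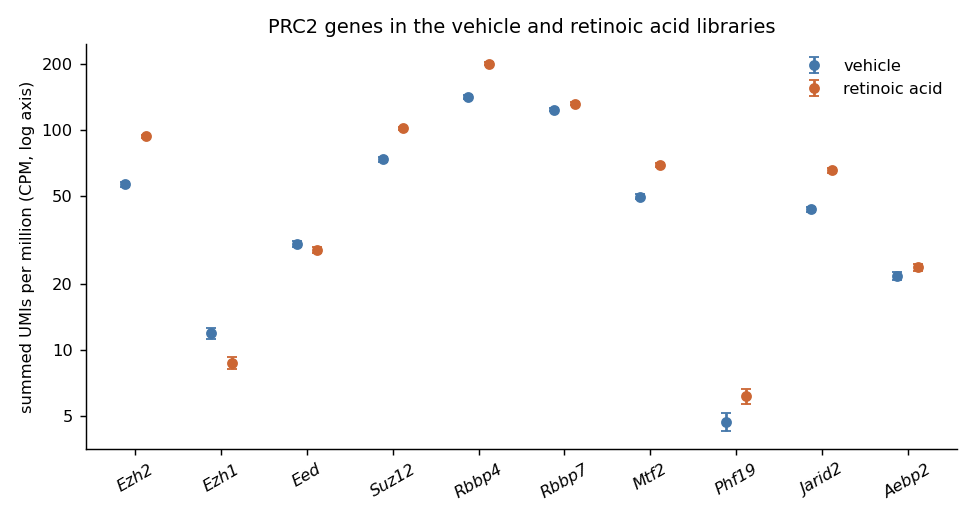
CPM of each PRC2 gene (log axis) in the vehicle and retinoic acid libraries, 1 library per group. Points are sums over all kept cells and bars are 95% counting intervals. Ezh2 is at 56.5 and 93.4 CPM, and Ezh1 and Eed are the members lower with retinoic acid.

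Ezh2, the main catalytic subunit (ENSMUSG00000029687, GRCm38 chromosome 6, 47530139 to 47595341, minus strand), was at 56.5 CPM (55.1 to 58.0) with vehicle and at 93.4 CPM (91.6 to 95.2) with retinoic acid. The log2 ratio of retinoic acid over vehicle was 0.72 (0.68 to 0.77). Ezh1, the alternative enzyme (ENSMUSG00000006920, chromosome 11, 101191115 to 101226463, minus strand), went the other way, with 11.9 CPM (11.2 to 12.6) under vehicle and 8.72 CPM (8.18 to 9.29) under retinoic acid. Its log2 ratio was -0.45 (-0.57 to -0.32). The catalytic pair therefore differed in opposite directions between the libraries, and neither gene's counting intervals overlapped.

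The obligate partners differed from each other as well. Suz12, the scaffold (chromosome 11, 79993106 to 80034123), was at 73.4 CPM (71.7 to 75.1) with vehicle and at 101.7 CPM (99.8 to 103.6) with retinoic acid, a log2 ratio of 0.47. Eed, the reader of the mark (chromosome 7, 89954654 to 89980983), was at 30.3 CPM (29.2 to 31.4) and 28.5 CPM (27.5 to 29.5), a log2 ratio of -0.09 (-0.16 to -0.02). Eed was thus nearly level while Suz12 was higher.

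Rbbp4 and Rbbp7 are close paralogs, and their values are uncertain as far as the counting could split reads between them. Rbbp4 (chromosome 4, 129307100 to 129335370) was at 141 CPM with vehicle and at 199.9 CPM with retinoic acid, a log2 ratio of 0.50 (0.47 to 0.53). Rbbp7 (chromosome X, 162760402 to 162779092) was at 123.6 and 131.3 CPM, a log2 ratio of 0.09 (0.05 to 0.12). Rbbp7 gave 46.7% (46.1 to 47.3) of the UMIs of the pair with vehicle and 39.6% (39.1 to 40.1) with retinoic acid.

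Of the accessory genes, Jarid2, whose protein guides PRC2 to chromatin (chromosome 13, 44729474 to 44921643), was at 43.5 and 65.4 CPM, a log2 ratio of 0.59 (0.53 to 0.64). Mtf2 (chromosome 5, 108065674 to 108109004) was at 49.7 and 69.4 CPM, a log2 ratio of 0.48. Phf19, the other Polycomb-like gene (chromosome 2, 34893757 to 34914026), was the least abundant member at 4.72 CPM (4.31 to 5.17) and 6.16 CPM (5.70 to 6.64), a log2 ratio of 0.38 (0.21 to 0.56). Aebp2 (chromosome 6, 140622663 to 140678472) was at 21.7 and 23.7 CPM, a log2 ratio of 0.13 (0.04 to 0.21). All 4 accessory genes were thus higher with retinoic acid over all cells. Jarid2 had the largest ratio of them there but not when every cell had equal weight, where it was at 0.50, Mtf2 at 0.54 and Phf19 at 0.57.

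Over the whole set, 8 of 10 members were higher with retinoic acid and 2 lower, and all 10 reached 5 CPM in at least 1 library. Ezh2 and, just past the limit, Jarid2 were at least 1.5-fold higher, 2 of 10, where 8.69% of the 9145 genes with 5 CPM in either library were; no member was 1.5-fold lower, where 12.9% of genes were. None differed 2-fold, where 10.1% of genes did. The median member log2 ratio was 0.43, and that of all genes was -0.01. The sign held for 7 members under all 9 other settings tried, and the signs of Aebp2, Eed and Rbbp7 turned in cells without mast cell, basophil or eosinophil UMIs.

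That last setting, chosen after seeing the data, left out every cell with a UMI of the mast cell and basophil or the eosinophil list. It kept 521 vehicle and 3474 retinoic acid cells, with medians of 13262 and 11760 UMIs. Leaving cells out also changed the mix of cell cycle phases, called as described below. G1 cells made up 44.3% of vehicle and 27.4% of retinoic acid cells, against 47.9% and 19.4% without this filter. The part of phase in the values was not tested. In the cells kept, Ezh2 was at 63.7 and 88.5 CPM, a log2 ratio of 0.47 (0.34 to 0.62). Jarid2 was at 49.7 and 57.6 CPM, a log2 ratio of 0.21 (0.05 to 0.38), below Mtf2 at 0.28 and Phf19 at 0.40. No member was past 1.5-fold there, where 6.13% of genes were higher and 15.2% lower by that much, and the median member log2 ratio was 0.22 against -0.13 over all genes. Ezh1 kept a log2 ratio of -0.52 (-0.85 to -0.16). Aebp2 was at -0.19, Eed at 0.02 and Rbbp7 at -0.07, each with an interval that includes 0. Whether such cells or their free RNA take part in the library difference was not tested further.

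Some member loci overlap an exon of a gene on the opposite strand, and it is not stated whether the counting used strand. Tmed5, which overlaps Mtf2, was at 87.7 and 70.6 CPM in the vehicle and retinoic acid libraries, lower with retinoic acid where Mtf2 was higher. Txlng, which overlaps Rbbp7, was at 15.0 and 14.5 CPM, and E230029C05Rik, which overlaps Eed, at 1.43 and 0.827 CPM. Without strand, reads from the shared stretches cannot be told apart.

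In single cells the members were sparse. To compare cells of unlike depth, each cell was thinned by drawing 5000 of its UMIs at random. The 194 vehicle and 481 retinoic acid cells below that depth were dropped, leaving 5282 and 6659. Ezh2 had a UMI in 19.97% (18.9 to 21.1) of thinned vehicle cells and 34.1% (33.0 to 35.3) of thinned retinoic acid cells, and without thinning in 48.5% and 62.2%. Ezh1 had a UMI in 6.08% (5.45 to 6.76) and 4.40% (3.92 to 4.92), and without thinning in 18.6% and 11.99%. The widest detection was that of Rbbp4, in 46.4% and 60.1% of thinned cells, and the narrowest that of Phf19, in 2.01% and 3.12%. A thinned cell showed a median of 2 of the 10 members in either library, and 11.3% of vehicle and 6.07% of retinoic acid cells showed none. Both Ezh1 and Ezh2 were seen in 1.15% and 1.34% of thinned cells. These shares include free RNA, for which the sort holds no cell type without the members as a reference.

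Cycling state was called per thinned cell from 43 S genes and 54 G2/M genes, none of them a member. The G1 share was 47.9% (46.6 to 49.3) with vehicle and 19.4% (18.4 to 20.3) with retinoic acid. S cells made up 19.97% and 39.5%, and G2/M cells 32.1% and 41.1%. With control genes of the scores drawn from all listed genes, an alternative chosen after seeing the data, the S shares were 9.11% and 24.03%. Levels by phase are sums over all UMIs of these cells, not only the thinned ones. Of 4 S genes and 4 G2/M genes outside the calling lists, each was lowest in G1 cells of both libraries. Lig1, Tk1 and Dut were highest in S cells, and Plk1, Ccnb1, Ccna2 and Prc1 in G2/M cells. Pclaf, chosen as an S gene, did not separate S from G2/M, at 204.7 and 204.1 CPM with vehicle and at 195.5 and 218.3 CPM with retinoic acid. Tk1, a thymidine kinase of S phase, was at 1.18, 58.5 and 34.8 CPM in vehicle G1, S and G2/M cells and at 4.59, 93.3 and 64.3 CPM in retinoic acid cells. Plk1, a mitotic kinase, was at 0.926, 15.3 and 102.0 CPM and at 1.65, 16.3 and 121.6 CPM. The calls are cuts on scores. An S or a G2/M score below 0.05 in absolute size was found in 25.6% of vehicle and 34.2% of retinoic acid cells. This count includes cells whose other score was clear, and it does not measure closeness to the cut between S and G2/M. Median depths in G1, S and G2/M were 13571.5, 18558 and 23954 UMIs in the vehicle and 10269, 14879 and 18788.5 UMIs in the retinoic acid library, and the part of depth and free RNA in the calls was not tested.

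With the phase calls used here, Ezh2 and Phf19 had the largest ratios of S over G1 among the members in both libraries, with overlapping intervals. Which of them led depended on the phase calls. Phf19 led with vehicle when phases came from 3000 UMIs (2.07 against 2.0) or from control genes of all listed genes (2.23 against 1.89), and with retinoic acid when cells were not thinned (1.69 against 1.64). The place of Phf19 with retinoic acid was not stable. Its interval there, 0.92 to 1.90, included the ratios of Rbbp7 (1.19) and Suz12 (1.05). Cells were also split into 3 equal groups by the share of the calling genes. For the highest over the lowest of these groups, Phf19 was at 0.77 with retinoic acid, below Suz12 at 1.25 and Mtf2 at 0.82. In the vehicle Ezh2 was at 19.6 CPM (18.2 to 21.1) in G1 cells, 84.5 CPM (80.5 to 88.5) in S cells and 74.4 CPM (71.9 to 77.1) in G2/M cells, a log2 ratio of S over G1 of 2.11 (1.98 to 2.24). In the retinoic acid library it was at 38.95 CPM (35.7 to 42.4) in G1, 106 CPM (102.9 to 109.2) in S and 98.8 CPM (96.1 to 101.4) in G2/M, a log2 ratio of 1.44 (1.32 to 1.58). The retinoic acid level of Ezh2 exceeded the vehicle level in each phase, most of all in G1, with a log2 ratio of 0.99 (0.83 to 1.16), against 0.33 in S and 0.41 in G2/M.

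Ezh1 was highest in G1 cells of the vehicle library. In the vehicle it was at 14.4 CPM (13.2 to 15.7) in G1, 9.66 CPM (8.37 to 11.1) in S and 10.8 CPM (9.79 to 11.8) in G2/M, a log2 ratio of S over G1 of -0.58 (-0.82 to -0.34). In the retinoic acid library it was at 9.33 CPM (7.79 to 11.1), 7.59 CPM (6.76 to 8.48) and 9.30 CPM (8.51 to 10.2), and its S over G1 interval of -0.60 to 0.01 included 0. Ezh1 was lower with retinoic acid in each phase, at log2 ratios of -0.63 in G1, -0.35 in S and -0.21 in G2/M.

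**Figure D2:**
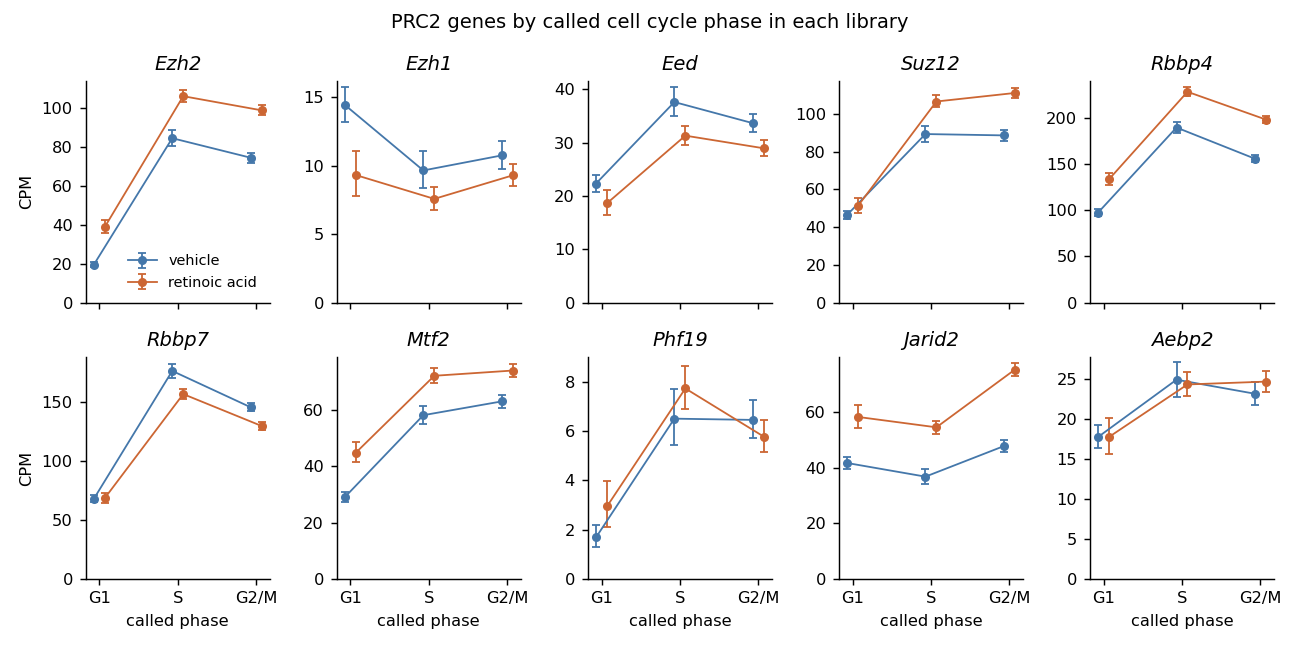
CPM of each PRC2 gene in cells called G1, S and G2/M, for the vehicle and retinoic acid libraries (1 library each), with 95% counting intervals. Ezh2 goes from 19.6 CPM in vehicle G1 cells to 84.5 in S, Ezh1 is highest in vehicle G1 cells at 14.4 CPM, and Jarid2 is lowest in S cells.

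The other core genes were all higher in S than in G1 cells. Suz12 was at 46.4, 89.3 and 88.5 CPM in vehicle G1, S and G2/M cells and at 51.3, 106.5 and 111 CPM in retinoic acid cells, with S over G1 log2 ratios of 0.94 and 1.05. Eed was at 22.4, 37.6 and 33.7 CPM and at 18.7, 31.3 and 29.0 CPM, with log2 ratios of 0.75 in both libraries. In every phase Eed was lower with retinoic acid, at log2 ratios of -0.26 in G1, -0.26 in S and -0.22 in G2/M, each with an interval below 0. Rbbp4 went from 97.4 CPM in G1 to 189 in S and 156 in G2/M in the vehicle, and from 133 to 228 and 198 in the retinoic acid library. Rbbp7 had a larger S over G1 log2 ratio than Rbbp4 in both libraries, 1.38 (1.30 to 1.45) against 0.96 (0.89 to 1.02) in the vehicle and 1.19 (1.09 to 1.29) against 0.77 (0.70 to 0.84) in the retinoic acid library. Its share of the pair's UMIs was accordingly lowest in G1, at 41.1% with vehicle and 34.0% with retinoic acid.

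Among the accessory genes the Polycomb-like pair had larger ratios of S over G1 than Jarid2 and Aebp2 in both libraries. Phf19 was at 1.68 CPM (1.28 to 2.17) in vehicle G1 cells and 6.51 CPM (5.45 to 7.71) in S cells, a log2 ratio of 1.94 (1.5 to 2.42). In retinoic acid cells it was at 2.94 and 7.73 CPM, a log2 ratio of 1.38 (0.92 to 1.90), from 41 and 313 UMIs. Mtf2 went from 29.1 to 58.1 CPM in the vehicle and from 44.8 to 72.1 CPM in the retinoic acid library, log2 ratios of 1.00 and 0.69. Jarid2 stood apart: it was at 41.7, 36.8 and 47.8 CPM in vehicle G1, S and G2/M cells and at 58.2, 54.5 and 75.3 CPM in retinoic acid cells. Its G2/M level was the highest of the 3 phases in both libraries, with S over G2/M log2 ratios of -0.38 (-0.50 to -0.26) and -0.47 (-0.54 to -0.39). Its S over G1 ratio was -0.18 and -0.10, and turned to 0.24 and 0.42 where cells were instead split into 3 equal groups by the share of the calling genes and the highest was set over the lowest. Aebp2 was at 17.8, 24.96 and 23.2 CPM in the vehicle and at 17.8, 24.4 and 24.7 CPM in the retinoic acid library.

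Counted over the set, 7 of 10 members were at least 1.5-fold higher in S than in G1 cells of the vehicle library, where 16.4% of 9145 genes were. The same count in the retinoic acid library was 7 of 10, where 17.3% of genes were. Ezh2, Phf19, Rbbp7 and Mtf2 were 2-fold higher in the vehicle, 4 of 10, where 6.66% of genes were, and Ezh2, Phf19, Rbbp7 and Suz12 in the retinoic acid library, 4 of 10, where 7.17% were. For G2/M over G1 the counts were 7 of 10 in the vehicle, where 18% of genes were, and 6 of 10 in the retinoic acid library, where 22.2% were. The median S over G1 log2 ratio of the members was 0.95 with vehicle and 0.76 with retinoic acid, and that of all genes was 0.11 and 0.14. No member was 1.5-fold lower in S than in G1, where 7.45% of vehicle and 6.06% of retinoic acid genes were, or in G2/M than in G1, where 8.07% and 7.33% were. Cells of 1 library are not replicates, and these values describe the libraries.

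Because the libraries held unlike shares of phases, both were also averaged over phases with the vehicle shares of cells as weights. The median member log2 ratio was 0.42 from summed UMIs and 0.23 weighted this way, over the same cells of at least 5000 UMIs. Sums give deeper cells more weight, whereas the weighted values count phases by cells. Each step below therefore also holds a change of weighting, and the part of phase alone was not tested. Vehicle Ezh2 was at 50.1 CPM weighted this way and at 56.5 CPM summed over all kept cells. Ezh2 went from 0.73 to 0.51 (0.46 to 0.57), Suz12 from 0.47 to 0.25 (0.20 to 0.30) and Rbbp7 from 0.09 to -0.11 (-0.16 to -0.07). Jarid2 was nearly as before, at 0.60 and 0.56 (0.50 to 0.63), and so was Ezh1, at -0.45 and -0.46 (-0.61 to -0.30). Eed was at -0.25 (-0.34 to -0.16), Rbbp4 at 0.36 and Mtf2 at 0.38. Phf19 was at 0.20 and Aebp2 at 0.03 (-0.08 to 0.13), and the intervals of both reached 0. At equal phases 7 members were higher, 5 of them with an interval above 0, and 3 were lower. No share or median over all genes was taken at these weights. Within phases the median log2 ratio of all genes was -0.10 in G1, -0.07 in S and -0.03 in G2/M. How far the lower member median and the count of 7 are particular to the members was therefore not tested. Ezh2 and Jarid2, past 1.5-fold over all cells, were both under it at equal phases.

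**Figure D3:**
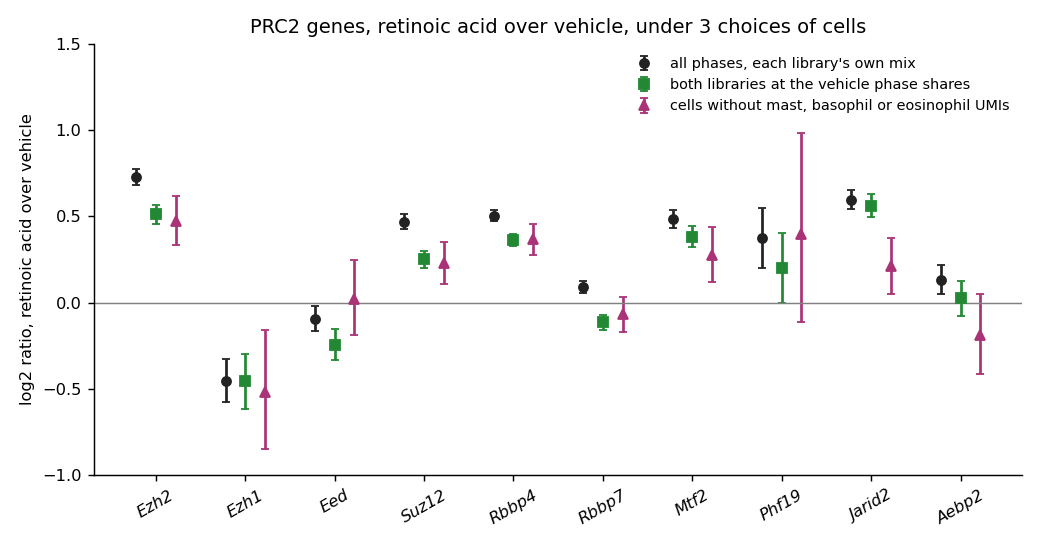
Log2 ratio of retinoic acid over vehicle for each PRC2 gene, with 95% counting intervals, in cells of at least 5000 UMIs at each library's own phases, in the same cells at the vehicle phase shares, and in cells without mast cell, basophil or eosinophil UMIs. Ezh2 is at 0.73 from summed UMIs and at 0.51 at the vehicle phase shares, which weight phases by cells. Jarid2 is at 0.56 at those shares, and Ezh1 lies below 0 in all 3.

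Phase by phase, the members past 1.5-fold between the libraries were few. Of the 9 members with 5 CPM in G1 cells of either library, Ezh2 and Mtf2 were at least 1.5-fold higher with retinoic acid, where 10.5% of genes were, and Ezh1 was 1.5-fold lower, where 18.8% of genes were. Phf19, under 5 CPM there, rested on 60 and 41 UMIs. In S cells no member reached 1.5-fold, where 7.05% of genes were that much higher and 12.4% lower. In G2/M cells only Jarid2 did, at a log2 ratio of 0.66 (0.58 to 0.73), where 7.41% of genes were higher by that much and 11.7% lower.

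The balance of the catalytic pair was taken as the Ezh1 share of the summed Ezh1 and Ezh2 UMIs. It was 17.4% (16.5 to 18.3) in the vehicle library and 8.54% (8.03 to 9.07) in the retinoic acid library. In vehicle cells it was 42.5% (39.7 to 45.3) in G1, 10.3% (8.95 to 11.7) in S and 12.6% (11.6 to 13.8) in G2/M. In retinoic acid cells it was 19.3% (16.4 to 22.5), 6.68% (5.97 to 7.44) and 8.61% (7.90 to 9.36). Vehicle G1 cells gave 515 Ezh1 and 698 Ezh2 UMIs, the most even of the 6 balances, and the share was lower with retinoic acid in each phase. The Ezh1 share in vehicle G1 cells was 34.9% when the control genes of the phase scores came from all listed genes.

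**Figure D4:**
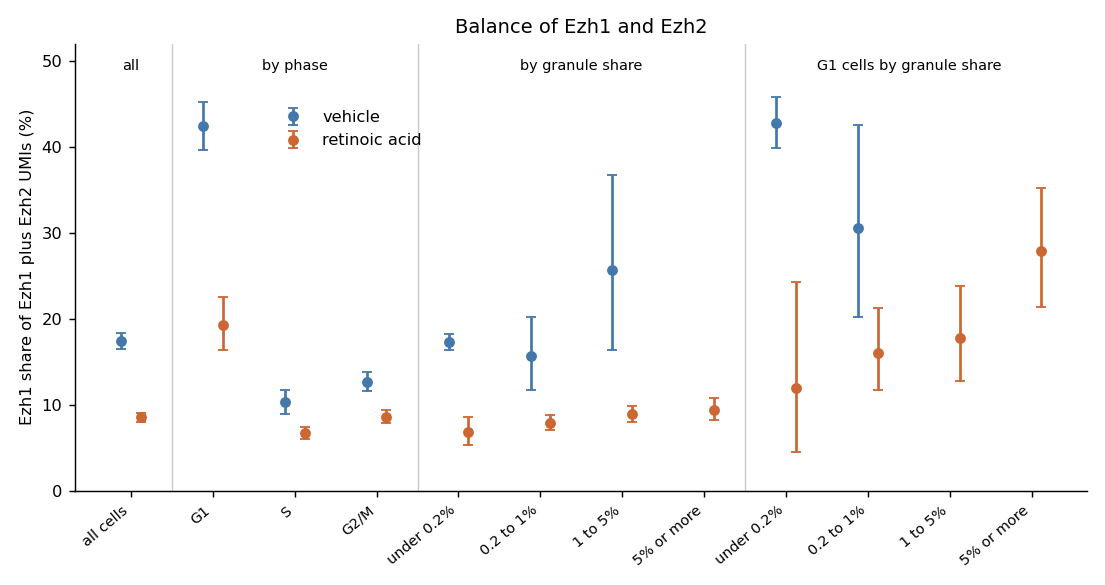
Ezh1 share of the summed Ezh1 and Ezh2 UMIs (percent) with exact 95% binomial intervals, over all cells, by called phase, by granule share and by granule share among G1 cells. Vehicle G1 cells stand at 42.5% and retinoic acid G1 cells at 19.3%, and among the latter the share runs from 12.0% to 27.9% with granule share; vehicle groups under 50 cells are not drawn.

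Granule share was measured as the percent of a thinned cell's UMIs in Camp, Ngp, Ltf and Lcn2, the secondary granule genes of maturing neutrophils. These genes took 0.111% of vehicle and 3.40% of retinoic acid UMIs. Retinoic acid cells were placed in 4 groups: 466 cells under 0.2%, 1960 from 0.2 to 1%, 2293 from 1 to 5%, and 1940 at 5% or more. Vehicle cells gave 4867, 310 and 72 cells to the first 3 groups, and the 33 in the last were not used. G1 cells made up 13.1%, 13.6%, 13.7% and 33.4% of the retinoic acid groups, and median depth went from 18549.5 UMIs in the lowest to 11299.5 in the highest group. Values by group are CPM with the granule genes left out of the total, since these genes dilute all others.

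Over all phases the members hardly differed from other genes between the highest and the lowest group of retinoic acid cells. Their median log2 ratio was -0.16, and that of all genes was -0.16. No member was past 1.5-fold, where 11.2% of genes were higher and 18.7% lower by that much. Mtf2 was lowest of the members at -0.56 (-0.69 to -0.43), from 86.0 to 58.4 CPM, followed by Rbbp7 at -0.53 (-0.62 to -0.43), from 160 to 111 CPM. Ezh2 was at -0.29 (-0.40 to -0.17), from 105.5 to 86.4 CPM. Ezh1 was at 0.21, with an interval of -0.18 to 0.64. Rbbp4 was at 0.09, and its sign turned in 2 of 5 other settings.

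Within G1 cells the differences were larger. Across G1 cells ordered by granule group, lowest first, Ezh2 had 52.3, 59.3, 45.4 and 24.7 CPM, a log2 ratio of highest over lowest of -1.09 (-1.59 to -0.55). In S cells its ratio was -0.08 (-0.26 to 0.10) and in G2/M cells -0.06 (-0.22 to 0.10), both with intervals that include 0. Rbbp7 was lower in the highest group in all 3 phases, at -1.37 (-1.71 to -1.02) in G1, -0.33 (-0.48 to -0.19) in S and -0.35 (-0.49 to -0.21) in G2/M. Mtf2 was too, at -0.88 (-1.33 to -0.39), -0.47 (-0.67 to -0.26) and -0.38 (-0.57 to -0.20). All genes had medians of -0.34, -0.15 and -0.08 in these comparisons. Rbbp4 was higher in the highest group in G2/M cells, at 0.33 (0.21 to 0.44), and lower in G1 cells, at -0.38 (-0.64 to -0.10). In S cells no member was past 1.5-fold, where 10.4% of genes were higher and 17.6% lower, and in G2/M cells none was, where 10.8% were higher and 15% lower.

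**Figure D5:**
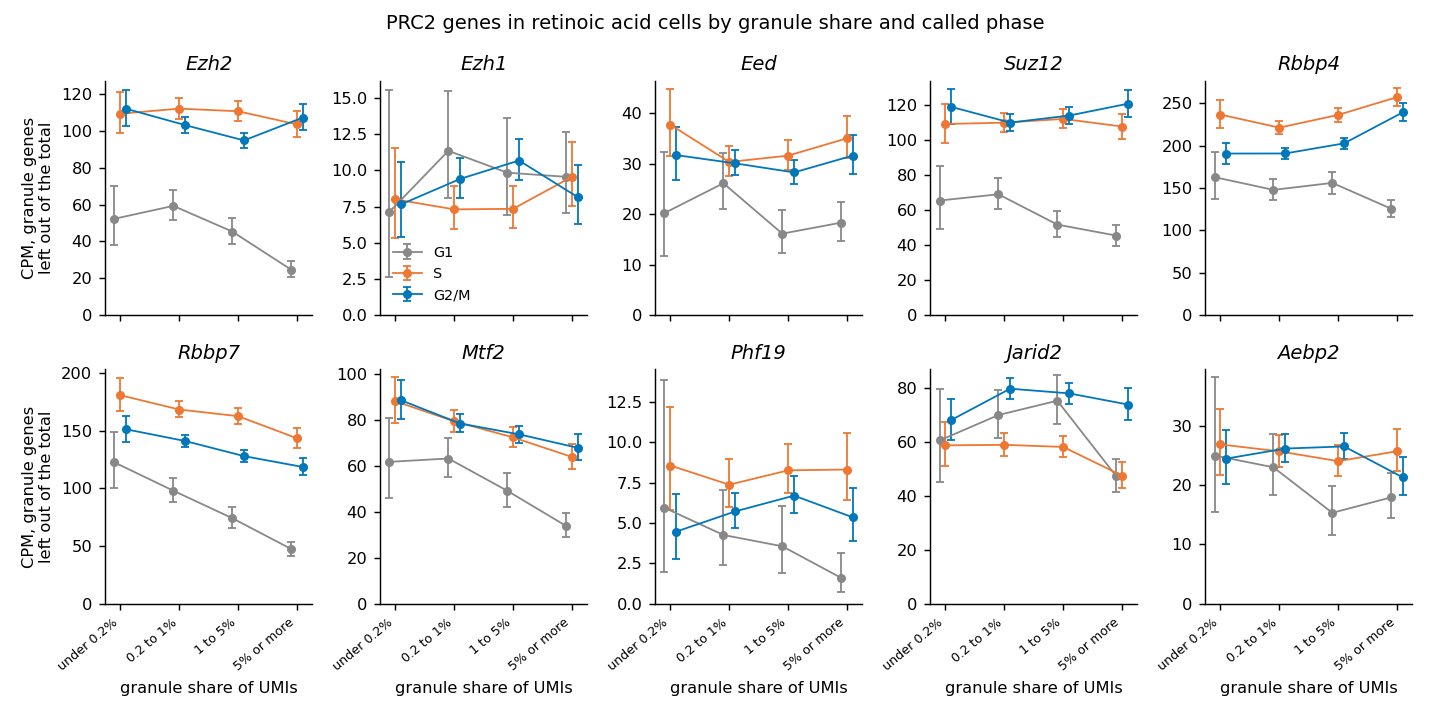
CPM of each PRC2 gene (granule genes left out of the total) in retinoic acid cells by granule share group, drawn apart for cells called G1, S and G2/M, with 95% counting intervals. Ezh2 is at 24.7 CPM in the highest group of the G1 line, whereas Rbbp7 and Mtf2 are lowest in the highest group on all 3 lines.

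The G1 comparison rests on few cells, 61 in the lowest and 648 in the highest group. In it 4 of 10 members were at least 1.5-fold lower in the highest group, Ezh2, Rbbp7, Mtf2 and Phf19, where 38.1% of genes were, and 3 were 2-fold lower, where 20.4% of genes were. None was 1.5-fold higher, where 16.5% of genes were. The member median was -0.52, and that of all genes was -0.34. A share of 4 of 10 is close to the background, and for Phf19 the UMIs were 5 and 8. Over all phases the Ezh1 share of the pair went from 6.84% (5.37 to 8.56) in the lowest through 7.93% and 8.90% to 9.44% (8.21 to 10.8) in the highest group. The intervals of the lowest and highest group overlapped. The share had no steady order in S cells, at 6.81%, 6.11%, 6.22% and 8.45%, or in G2/M cells, at 6.39%, 8.36%, 10.1% and 7.05%. In G1 cells it went from 12.0% (4.53 to 24.3) through 16.1% and 17.8% to 27.9% (21.3 to 35.2), below vehicle G1 cells under 0.2% granule share, at 42.8% (39.9 to 45.8). Ezh1 itself was at 7.13, 11.4, 9.84 and 9.55 CPM in these G1 groups, with overlapping intervals, the first from 6 UMIs. Ezh2 was at 52.3, 59.3, 45.4 and 24.7 CPM there. The share intervals of the lowest and highest G1 group overlapped too, and the part of each gene in the share was not tested.

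Cells of both libraries under 0.2% granule share were also compared. Their granule shares were not matched, with medians of 0.02% in vehicle and 0.12% in retinoic acid cells. These cells were 92.1% of vehicle but 7.0% of retinoic acid cells. In them Ezh2 was at 57.1 CPM with vehicle and at 105.5 CPM with retinoic acid, a log2 ratio of 0.89 (0.79 to 0.99). Mtf2 was at 49.9 and 86.0 CPM, a log2 ratio of 0.79 (0.67 to 0.89), and Suz12 at 73.2 and 110.1 CPM, a log2 ratio of 0.59 (0.49 to 0.69). Those were the members at least 1.5-fold higher, 3 of 10, where 8.46% of genes were, and Ezh1 was 1.5-fold lower at -0.61 (-0.99 to -0.28), where 10.4% of genes were. The median member log2 ratio was 0.46, and that of all genes was 0.09. Most members thus differed between the libraries in cells with little granule RNA as well, but Eed did not follow its pattern over all cells: it was at 0.11 (-0.07 to 0.28) here. Phases still differed there, with G1 shares of 46.9% (vehicle) and 13.1% (retinoic acid). In G1 cells under 0.2%, 61 of them with retinoic acid, 6 of 10 members were at least 1.5-fold higher, where 19.8% of genes were, and Ezh1 was 1.5-fold lower, where 15.5% were. Ezh2 (1.43), Mtf2 (1.10) and Phf19 (1.88, from 5 retinoic acid UMIs) were 2-fold higher there, 3 of 10, where 7.27% of genes were. In S cells under 0.2%, Jarid2 and Mtf2 were at least 1.5-fold higher, at 0.69 and 0.61, where 7.27% of genes were, and in G2/M cells Ezh2 was, at 0.60, where 6.5% of genes were.

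Likeness was described across 18 groups of cells (library by phase by granule share, each of at least 50 cells) as Pearson's r of log2(CPM + 1), here with the granule genes kept in the total. The groups share libraries, cells of like depth and the dilution by granule RNA, so r has no test. Ezh2 was most like Rbbp4 (r = 0.95), Suz12 (0.95) and Mtf2 (0.94) among the members, followed by Phf19 (0.92), Rbbp7 (0.90), Aebp2 (0.77) and Eed (0.73), and least like Jarid2 (0.33) and Ezh1 (-0.41). Of 5548 genes with 20 CPM in either library, those most like Ezh2 were Smc3 (0.99), a cohesin subunit, Hnrnpd, Fmr1, Trappc5 and Rdx. Those most like Ezh1 were Rab22a (0.76), Supt20, Git2, Rnh1 and Rela. Over these groups Ezh2 ranged from 19.6 to 111.9 CPM and Ezh1 from 7.12 to 14.7 CPM, and the part of counting error in the lower r of Ezh1 was not tested.

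Genes that work with or against PRC2 were read from lists by name. The list of other PRC2 genes held 6 symbols, of which 5 were found in the files and 3 reached 5 CPM. Ezhip and AU022751 were listed as alternative symbols, and AU022751 was found, with 0 UMIs in both libraries. Of the 3 genes, 2 were higher and 1 lower with retinoic acid (median log2 ratio 0.16). The lower one was Epop, which joins PRC2 to elongin, at 18.1 and 4.21 CPM, a log2 ratio of -2.10 (-2.25 to -1.96). Lcor and Lcorl, whose loci also encode the PALI subunits of PRC2, were at 0.20 and 0.16. Phf1, the third Polycomb-like gene, stayed under 5 CPM at 2.84 and 2.03. The demethylases that remove the mark were both slightly lower, Kdm6a at 13.4 and 11.3 CPM (log2 ratio -0.24) and Kdm6b at 18.4 and 16.1 CPM (-0.20).

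RBBP4 and RBBP7 also belong to the chromatin assembly factor CAF-1 and the remodelling complex NuRD. Of 13 genes for their partners there, 8 were higher with retinoic acid and 5 lower, with a median log2 ratio of 0.09, where all genes had -0.01. Chaf1a, the large CAF-1 subunit, was at 31.3 and 48.3 CPM, a log2 ratio of 0.63 (0.56 to 0.69), and Chaf1b at 21.4 and 30.8 CPM, a log2 ratio of 0.53. Chd3, a NuRD helicase, was at 63.1 and 10.4 CPM, a log2 ratio of -2.60 (-2.69 to -2.51), whereas its paralog Chd4 was at 152 and 179 CPM, a log2 ratio of 0.23. Chaf1a and Chd3 were the partners past 1.5-fold, 1 of 13 higher and 1 of 13 lower, where 8.69% and 12.9% of genes were, so these counts are near the background.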

How the data were processed

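The deposited values were raw UMI counts per gene and cell, and the file headers name Cell Ranger 4.0.0. The builds mm10 and GRCm38.p4 are named in the submitters' processing notes. The annotation, the cell calling rule and the use of strand are not given in the sources used here. Libraries were made with 10x Genomics 3′ v2 kits at a target of 6000 cells, per the labels' protocols.

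Cells with at least 1000 UMIs, 500 genes and at most 10% mitochondrial UMIs were kept, 5476 of 5786 vehicle and 7140 of 7416 retinoic acid barcodes. Scrublet called 1 and 7 doublets, so its calls were not used and doublets were kept. An alternative removed the 5% highest scores. Counts were summed over cells and given as CPM with exact Poisson intervals. Log2 ratios add 0.5 counts and carry exact conditional binomial intervals, and shares carry Clopper-Pearson intervals. All cover counting error only at 95%. A sum of 0 allows 3 counts, or 0.0303 CPM (vehicle) and 0.0273 CPM (retinoic acid). Depth was 99107718 and 110088247 UMIs. On simulated Poisson counts for retinoic acid over vehicle, 95.1% of intervals over 8876 genes held the true ratio. The intervals assume the same model, so this checks the computation only and not the spread between cells, mice or preparations.

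Phases came from scanpy 1.11.5 scoring of both libraries together at 5000 UMIs per cell, with control genes drawn from genes with a UMI in at least 3 cells. At the vehicle phase shares, the CPM of each phase was averaged with those shares as weights. TMM scaling used edgeR 4.0.16. Named genes were all 10 members, the fixed lists of partners, genes checking the phase calls, and the 5 genes most like Ezh2 and Ezh1. Loci come from GENCODE M21, which 32235 of 32285 identifiers matched, and promoters from RefSeq. Members, lists and rules were chosen with earlier results of these data known. With 1 library per group no test was made, and members were read against all genes with at least 5 CPM in either group. Alternatives covered scaling, cell filters, doublets, the CPM limit, phase calling and granule grouping.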

Additional observations from a re-analysis of the deposited data

How the results depend on the processing

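Each group held 1 library of an unstated number of mice, so mouse, sort and preparation cannot be told apart from treatment, and the intervals cover counting only. No paired analysis was possible because neither arm had a second library, and no library could be left out. Of 518 recomputed values, 404 moved by less than the counting error (numbers of genes by less than 1.5 times), 114 moved by more, and 0 changed sign among those past 1.5-fold. Of the 434 values for single members, 98 moved. Signs of members nearer to 0 did turn: Aebp2, Eed and Rbbp7 between the libraries, Jarid2 for S over G1, Ezh1 for G2/M over G1 with retinoic acid, and Eed, Phf19 and Rbbp4 for granule share. The cause of a move was not tested, except where the setting has other genes or fewer cells.

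Leaving out cells with mast cell, basophil or eosinophil UMIs, chosen after seeing the data, gave a median member log2 ratio of 0.22 and an Ezh1 share of 15.97% in the vehicle. The number of genes at least 1.5-fold apart, 1972, was 1014 at 20 CPM (452 higher, 562 lower) and 8677 with no limit (3131 higher, 5546 lower), as fewer or more genes were compared. With phase control genes from all listed genes, also chosen after seeing the data, the median S over G1 was 0.59 with retinoic acid, the median G2/M over G1 was 0.70 in the vehicle and 0.49 with retinoic acid, and the Ezh1 share of vehicle G1 cells was 34.9%. That setting placed 54.4% of vehicle and 29.5% of retinoic acid cells in G1. Splitting cells into 3 equal groups by the share of the calling genes gave a median of 0.91 in the vehicle in place of 0.80 for G2/M over G1. G1 cells only gave a median of -0.52 for the highest over the lowest granule group, and Ezh1 shares of 12.0% in the lowest and 27.9% in the highest group. TMM scaling added 0.08 to each log2 ratio and left Eed at -0.01.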

Other observations

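The Polycomb-like genes Mtf2 and Phf19 together gave 45.5% (44.6 to 46.4) of the UMIs of the 4 accessory genes in the vehicle and 45.9% (45.2 to 46.6) in the retinoic acid library. By phase the share was 34.1% (32.4 to 35.7) in G1, 51.2% (49.2 to 53.1) in S and 49.5% (48.2 to 50.8) in G2/M cells of the vehicle. In retinoic acid cells it was 38.6% (36.3 to 40.9), 50.3% (49.1 to 51.5) and 44.4% (43.4 to 45.4). The libraries thus gave nearly the same share over all cells, while it was lowest in G1 in both. In G1 cells it was higher with retinoic acid and in G2/M cells lower, without overlap of the intervals. Over the granule groups of retinoic acid cells it went from 50.8% (48.3 to 53.2) in the lowest through 46.3% and 45.0% to 44.5% (42.7 to 46.2) in the highest.

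The Rbbp7 share of Rbbp4 and Rbbp7 UMIs went from 43.7% (42.0 to 45.4) in the lowest granule group of retinoic acid cells through 42.6% and 39.1% to 33.6% (32.5 to 34.7) in the highest. In the vehicle the first 3 groups had 46.9%, 45.1% and 37.3%, the last from 72 cells with an interval of 31.8 to 43.2. These paralogs share sequence, and a split of reads between them was not tested.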
